A study of Mus musculus with 12 samples.

Results

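The genes described here mark successive stages of the oligodendrocyte lineage, the glial cells that make myelin. They are Pdgfra, Olig1, Olig2, Sox10, Nkx2-2, Gpr17, Enpp6, Bcas1, Myrf and Nkx6-2, listed from the precursor to the newly formed oligodendrocyte. The rule takes them by symbol and uses no measured value, but it was written with earlier results of these data known. The 10 symbols matched 10 of the 46078 gene identifiers in the deposited table, and all 10 had a mean of at least 10 normalized counts and were tested. The question asked of them was at which stage a difference between genotypes starts.

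Hippocampus of C57BL/6 mice at P25, postnatal day 25, was profiled by RNA sequencing with a TruSeq kit that selects poly(A) RNA. Of the 12 libraries, 3 came from wild-type males, 3 from wild-type females, 3 from mutant males and 3 from mutant females. Mutants were heterozygous for Asn2373LysfsX2, a frameshift mutation of Chd8, and so kept 1 wild-type copy in every cell. The labels name no further allele and no treatment, and leave unsaid whether the 3 libraries of each group are from different mice, so p-values here measure the spread between libraries, which may be technical.

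Chd8 encodes a chromatin remodelling enzyme that uses ATP to move nucleosomes. Oligodendrocyte precursors divide under the growth factor PDGF, which they sense through the receptor Pdgfra, and they lose this receptor when they commit to differentiation. Committed cells pass through a short premyelinating stage that is marked by the receptor Gpr17 and then the enzyme Enpp6, and the transcription factor Myrf then drives the genes of myelin. Olig1, Olig2 and Sox10 are kept on through the whole lineage. In the hippocampus of young mice, precursors, differentiating cells and myelinating cells are all present at once, so whole tissue mixes the stages.

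The labels were first checked on Chd8 itself. It stood at 2751 to 2994 in wild-type males against 2383 to 2508 in mutant males, and 2845 to 2893 in wild-type females against 2426 to 2513 in mutant females, with every mutant library below every wild-type library. Its log2 difference between mutants and wild type, averaged over both sexes, was -0.22 ± 0.03 (standard error, limma adjusted p = 0.0289). The adjusted p passed 0.05 without wild-type male 1 or without mutant male 3, and was 0.0788 to 0.162 when any other single library was left out. It was 0.0538 without a filter on low values and 0.636 with a fibroblast covariate. Libraries also differed in other ways. Recovered reads numbered 26912998 to 33327314 in wild-type libraries and 23721482 to 24654408 in mutant libraries, so depth moved with genotype. Genes of the choroid plexus, the secretory tissue in the adjoining ventricle, were nearly missing from wild-type female 1, mutant male 2 and mutant male 3. Ttr, their most abundant marker, had 167 to 274 normalized counts in those libraries. Results that rest on these libraries are given with and without them.

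Levels can be compared between genes only per length of exon. Averaged over the 12 libraries, Olig1 was the highest with 2056 normalized counts per kb. Bcas1 followed with 1025 and Gpr17 with 665 per kb. The ranges of these genes over libraries did not touch. Sox10 at 521, Olig2 at 433, Myrf at 321, Nkx6-2 at 232 and Pdgfra at 212 per kb came next, and in this stretch, Gpr17 included, the ranges of neighbours overlapped. Enpp6, at 103 per kb, lay below the range of Pdgfra, and Nkx2-2, at 37.8 per kb, lay below that of Enpp6.

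Pdgfra, the receptor of precursors, did not separate the genotypes, while the 9 genes that stand after it in the order were all lower in mutants, where 50.1% of all genes tested were lower. Averaged over both sexes, the log2 difference of these 9 ran from -0.33 for Enpp6 to -0.06 for Nkx2-2, and that of Pdgfra was 0.01. The median over the 10 genes was -0.19, beside a median of -0.0001 over the 17496 genes tested. With limma, 0 of the 10 passed an adjusted p of 0.05, a threshold passed by 0.00572% of all genes tested, which is Chd8 alone. At an unadjusted p under 0.05, 8 of the 10 were lower and 0 higher, where 4.47% of all genes tested were lower. Under 24 alternative settings, Olig1, Sox10, Enpp6, Bcas1 and Myrf kept an unadjusted p under 0.05 in all 24. Gpr17 kept it in 23, Olig2 in 21 and Nkx6-2 in 19. Fewer cells of a stage and less RNA per cell cannot be told apart in whole tissue.

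**Figure D1:**
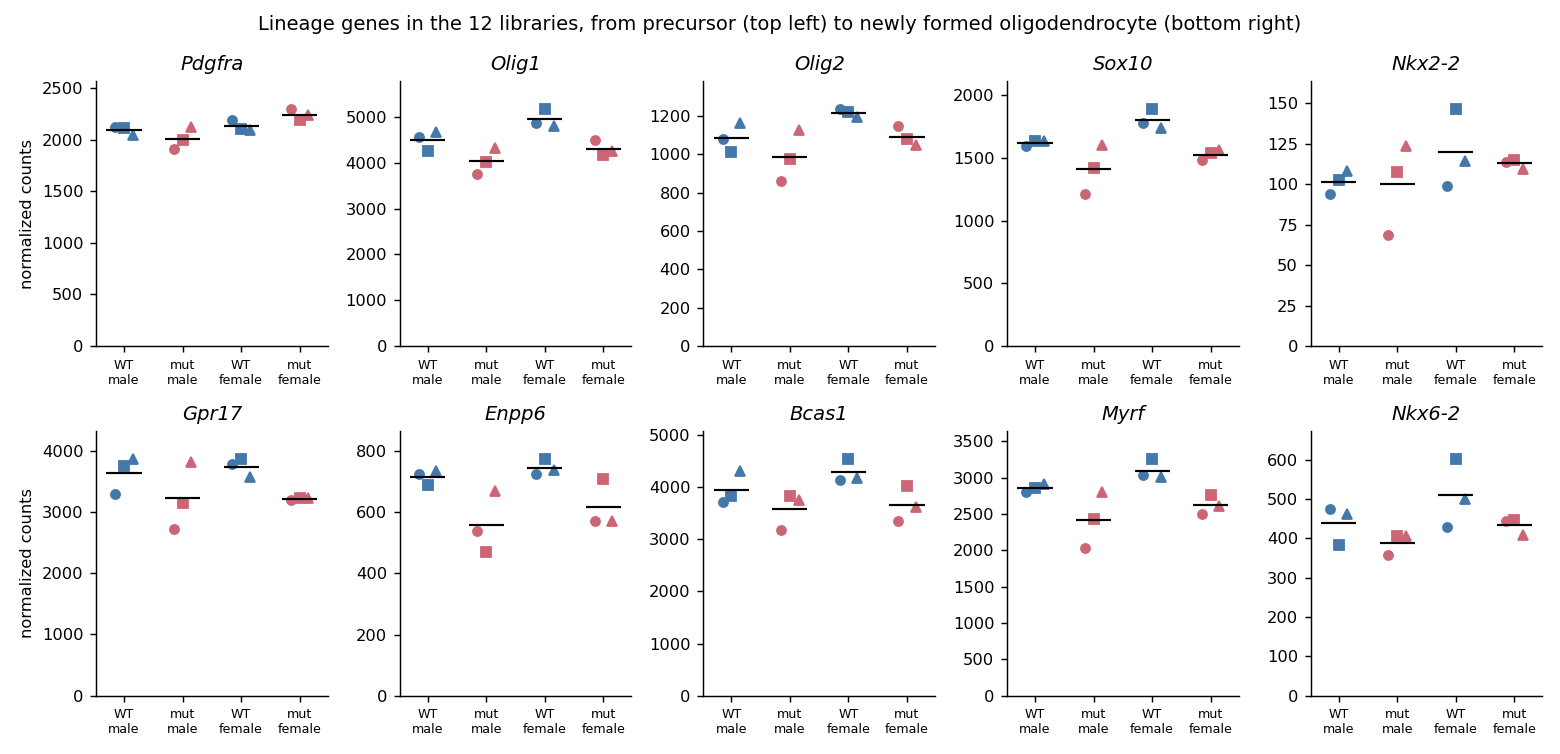
Normalized counts of the 10 lineage genes (vertical axes, each from 0) in each of the 12 libraries, by genotype and sex, with a bar at each group mean. Pdgfra stays within 1913 to 2295 in all groups, and Enpp6 alone has its mutant libraries below the wild-type libraries in both sexes.

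Pdgfra lies on chromosome 5 (ENSMUSG00000029231, chr5:75152292-75198215, plus strand; all gene positions are Ensembl gene spans on GRCm38). Its normalized counts were 2122, 2118 and 2046 in wild-type males against 1913, 2002 and 2122 in mutant males, and 2195, 2106 and 2100.4 in wild-type females against 2295, 2189 and 2241 in mutant females. The groups overlapped, with mutant male 1 the lowest and mutant female 1 the highest of all libraries. The averaged log2 difference was 0.01 ± 0.03 with a 95% interval of -0.06 to 0.07 (limma adjusted p = 0.968). In males it was -0.06 and in females 0.07, with adjusted p-values of 0.670 and 0.800. The test of the difference between the sexes gave -0.13 (males minus females, adjusted p = 0.635). The sign of the small averaged value turned when wild-type male 3 (-0.0024), mutant male 3 (-0.01) or mutant female 1 (-0.0024) was left out.

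Olig1, Olig2 and Sox10 are transcription factors that give the lineage its identity, from precursor to myelinating cell, and all of them were lower in mutants. Olig1 and Olig2 are neighbours on chromosome 16, at chr16:91269772-91271933 (ENSMUSG00000046160) and chr16:91225457-91228677 (ENSMUSG00000039830), both on the plus strand. The normalized counts of Olig1 were 4562, 4251 and 4673 in wild-type males against 3750.3, 4019 and 4329 in mutant males, and 4871, 5165 and 4806 in wild-type females against 4496, 4160.4 and 4254 in mutant females. Its mutant females all lay below its wild-type females, while mutant male 3 overlapped the wild-type males. Its averaged log2 difference was -0.18 ± 0.04, or 11.7% lower (95% interval 6.34% to 16.8%, limma adjusted p = 0.285). It had the smallest unadjusted p of the 10 genes, 6.04e-04.

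Olig2, which specifies the lineage, had normalized counts of 1014 to 1161 in wild-type males against 859 to 1128 in mutant males, and 1196 to 1234 in wild-type females against 1049 to 1147 in mutant females. The females again did not overlap and the males did. The averaged log2 difference was -0.15 ± 0.06, or 9.83% lower (limma adjusted p = 0.487). Sox10, a factor that the lineage needs for its myelin genes, lies on chromosome 15 (ENSMUSG00000033006, chr15:79154908-79165240, minus strand). Its normalized counts were 1592, 1634 and 1631 in wild-type males against 1211, 1420.5 and 1605 in mutant males, and 1777, 1887 and 1739 in wild-type females against 1482, 1537 and 1560.1 in mutant females. Mutant male 1 was the lowest library, mutant male 3 lay within the wild-type male range, and the females did not overlap. Sox10 was 14.3% lower on average, a log2 difference of -0.22 ± 0.05 (limma adjusted p = 0.316).

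Nkx2-2, a homeodomain factor of cells that start to differentiate, did not show a difference beyond its spread. It lies on chromosome 2 (ENSMUSG00000027434, chr2:147177546-147194243, minus strand) and was the least abundant of the 10 genes. Its counts were 93.9, 102 and 108 in wild-type males against 68.5, 108 and 124 in mutant males, and 99.0, 146 and 115 in wild-type females against 114, 115 and 109.7 in mutant females. All groups overlapped, and the averaged log2 difference of -0.06 ± 0.14 had a 95% interval of -0.37 to 0.24 (limma adjusted p = 0.926). This interval includes the values of the 9 other genes. The sign turned without mutant male 1, at 0.06, or without wild-type female 2, at 0.01.

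Gpr17, a membrane receptor of committed precursors that is lost before myelin forms, marks the step after Pdgfra. It lies on chromosome 18 (ENSMUSG00000052229, chr18:31942997-31949636, minus strand). Its counts were 3296, 3753 and 3856 in wild-type males against 2723, 3144 and 3821 in mutant males, and 3783, 3860.3 and 3563 in wild-type females against 3199, 3228 and 3224 in mutant females. The mutant females lay close together and below all wild-type females, whereas the mutant males spread across and below the wild-type male range. The averaged log2 difference was -0.20 ± 0.07, or 12.8% lower (limma adjusted p = 0.420). Gpr17 is the earliest stage-restricted gene after Pdgfra in the order whose unadjusted p was under 0.05, a threshold it missed with a fibroblast covariate (-0.18, limma unadjusted p = 0.0588). Of the genes between, Olig1, Olig2 and Sox10 are made at all stages.

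Enpp6, a choline-specific phosphodiesterase of newly formed oligodendrocytes, had the largest difference of the 10 genes. It lies on chromosome 8 (ENSMUSG00000038173, chr8:46986887-47096762, plus strand). Its counts were 725, 689 and 735 in wild-type males against 538, 471 and 669 in mutant males, and 724, 774 and 739 in wild-type females against 571, 708 and 570.2 in mutant females. It was the only 1 of the 10 with mutants below wild type in each sex separately, a pattern held by 0.6% of all genes tested, although mutant female 2 exceeded wild-type male 2. The averaged log2 difference was -0.33 ± 0.08, or 20.2% lower (95% interval 9.97% to 29.3%, limma adjusted p = 0.315). It was -0.37 ± 0.11 in males and -0.28 ± 0.11 in females. In mutants, the libraries of a sex also differed more than in wild type, with an SD of 101 and 79.1 normalized counts in mutant males and females against 24.4 and 25.3 in wild-type males and females. This difference in spread was not tested.

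Pdgfra and Enpp6 are the ends of the range of differences, and the sequences before their starts are printed for that reason. Both are the 250 bases before the RefSeq start on GRCm38.p6, read 5′ to 3′ on the plus strand, at chr5:75152001-75152250 and chr8:46986637-46986886. Capitals mark matches on either strand to ACAAAG or ACAATG, letters that SOX factors such as Sox10 are known to bind, or to CANNTG, the E-box of factors such as Olig2.
Pdgfra: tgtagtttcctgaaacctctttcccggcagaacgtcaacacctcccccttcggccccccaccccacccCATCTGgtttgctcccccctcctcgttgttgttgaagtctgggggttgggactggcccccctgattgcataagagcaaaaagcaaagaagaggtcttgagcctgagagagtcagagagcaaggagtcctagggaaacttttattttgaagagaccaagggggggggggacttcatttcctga
Enpp6: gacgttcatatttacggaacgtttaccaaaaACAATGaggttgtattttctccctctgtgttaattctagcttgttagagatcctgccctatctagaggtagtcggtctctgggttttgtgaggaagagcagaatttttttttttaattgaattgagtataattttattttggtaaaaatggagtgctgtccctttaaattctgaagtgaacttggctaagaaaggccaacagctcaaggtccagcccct
The window of Pdgfra held 1 CANNTG and had a GC content of 54.4%. That of Enpp6 held 1 ACAATG and had a GC content of 38.4%, where the median over 32851 promoters was 52.4%. Of all these promoters, 66.2% held CANNTG, 10.7% held ACAATG and 16.5% held ACAAAG. The table of promoters had 5 of the 10 genes; of the other 3, Olig2 held 1 ACAATG, Nkx2-2 3 CANNTG and Nkx6-2 1 CANNTG. A match is a description of letters and not a binding site.

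Bcas1, a protein of early myelinating cells, and Myrf, the transcription factor that switches on myelin genes, come next in the order. Bcas1 lies on chromosome 2 (ENSMUSG00000013523, chr2:170346991-170427845, minus strand), with normalized counts of 3706 to 4313 in wild-type males against 3179.98 to 3823 in mutant males, and 4142 to 4536 in wild-type females against 3344 to 4026 in mutant females. The females did not overlap and the males did. Its averaged log2 difference was -0.19 ± 0.06, or 12.1% lower (limma adjusted p = 0.392). Myrf lies on chromosome 19 (ENSMUSG00000036098, chr19:10208272-10240748, minus strand). Its counts were 2802, 2856 and 2916 in wild-type males against 2027, 2430.2 and 2802 in mutant males, and 3031, 3254 and 3006 in wild-type females against 2502, 2759 and 2603 in mutant females. The females did not overlap, and in males the highest mutant library equalled the lowest wild-type library to within 1 normalized count. Myrf was 15.7% lower, a log2 difference of -0.25 ± 0.06 that was second in size to Enpp6 (limma adjusted p = 0.316). It was -0.25 in males and -0.24 in females, and the male value ran from -0.36 to -0.13 when single libraries were left out, the latter without mutant male 1.

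Nkx6-2, a homeodomain factor of maturing oligodendrocytes, ends the order. It lies on chromosome 7 (ENSMUSG00000041309, chr7:139579376-139582797, minus strand) and its normalized counts were 475, 382 and 462 in wild-type males against 357, 405 and 405 in mutant males, and 429, 601 and 499 in wild-type females against 445, 447 and 409.5 in mutant females. Both sexes overlapped, and wild-type female 2 stood above the rest. The averaged log2 difference was -0.20 ± 0.08, or 12.7% lower (limma adjusted p = 0.517).

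**Figure D2:**
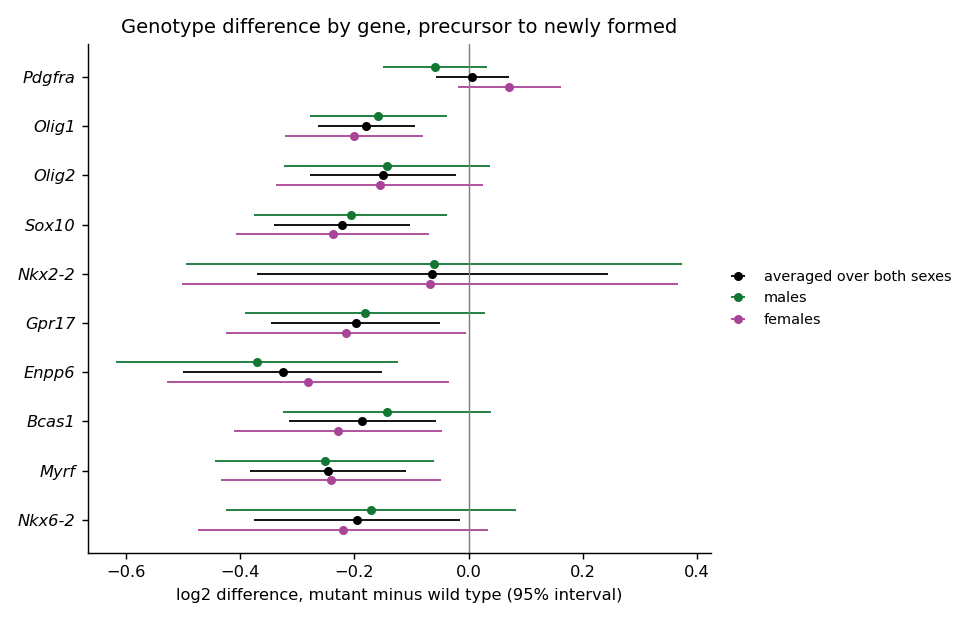
Log2 difference between mutant and wild-type libraries for the 10 genes in lineage order, averaged over both sexes and in each sex, with 95% intervals. The averaged points lie at 0.01 for Pdgfra and between -0.06 and -0.33 for the 9 other genes, with the interval of Nkx2-2 the widest.

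The depth and the choice of test bear on these values. With reads thinned to 23721482 per library, the averaged log2 difference of Olig1 was -0.17 and that of Enpp6 -0.32, while that of Nkx2-2 was -0.15 in place of -0.06. DESeq2 on the recovered reads called 4 of the 10 genes lower, namely Olig1 (adjusted p = 0.0108), Sox10 (0.0378), Enpp6 (0.0378) and Myrf (0.0342), where it called 0.326% of all genes tested lower. The quasi-likelihood test of edgeR called 0 of the 10 genes and 0.00572% of all genes tested. Without the 3 libraries that nearly lacked choroid plexus genes, limma called 4 of the 10 lower, where it called 0.428% of all genes tested lower. The only mutant male kept was mutant male 1, the lowest of the 12 libraries for 9 of the 10 genes, and its spread is assumed to be that of the other groups. They were Olig1 (log2 -0.24, adjusted p = 0.0494), Sox10 (-0.33, adjusted p = 0.0134), Gpr17 (-0.31, adjusted p = 0.0351) and Myrf (-0.38, adjusted p = 0.0118). Pdgfra stood at -0.02 in that comparison. The others stood at -0.24 for Olig2, -0.38 for Nkx2-2, -0.36 for Enpp6, -0.28 for Bcas1 and -0.31 for Nkx6-2, none past the adjusted threshold.

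Within each sex most of the genes had the same sign. In males all 10 were lower in mutants, as were 49.4% of all genes tested, with a median log2 difference of -0.16. With limma, 4 had an unadjusted p under 0.05, where 6.23% of all genes tested were lower at that threshold. In females 9 of 10 were lower, beside 49.5% of all genes tested, with a median of -0.22 and Pdgfra the exception. There 6 had an unadjusted p under 0.05, against 3.07% of all genes tested. In each sex 0 of the 10 passed an adjusted p of 0.05 (0% of all genes tested). The test of whether the genotype difference itself differed between males and females also passed for 0 of the 10 (0% of all genes tested).

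The sexes differed in how the libraries overlapped. In females every mutant library was below every wild-type library for 7 of the 10 genes, Olig1, Olig2, Sox10, Gpr17, Enpp6, Bcas1 and Myrf, a pattern held by 5.66% of all genes tested. In males this held for Enpp6 only, against 7.68% of all genes tested. Pooled over the sexes, all 6 mutant libraries lay below all 6 wild-type libraries for 0 of the 10 (0.24% of all genes tested). The mutant females were alike, with median log2 values over the 10 genes of -0.20, -0.17 and -0.22 against the wild-type female mean. The mutant males were not. Mutant male 1 stood at -0.37, mutant male 2 at -0.16 and mutant male 3 at -0.02 against the wild-type male mean. Mutant male 1 was the lowest of the 12 libraries for 9 of the 10 genes, and wild-type female 2 the highest for 8 of them. Without mutant male 3, Sox10, Enpp6 and Myrf had a limma adjusted p of 0.0515 and Olig1 of 0.0602, so that still 0 of the 10 passed, where 0.0457% of all genes tested did.

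The stage question was put to the test by comparing each gene's genotype difference with that of Pdgfra in the same libraries. All 9 genes were lower in mutants relative to Pdgfra, as were 53.3% of all genes tested, with a median of -0.20 on the log2 scale. The values ran from -0.33 ± 0.08 for Enpp6 and -0.25 ± 0.06 for Myrf to -0.07 ± 0.14 for Nkx2-2. In limma 8 of the 9 had an unadjusted p under 0.05, all but Nkx2-2, where 3.62% of all genes tested were lower. With 0 of the 9 past an adjusted p of 0.05 (0% of all genes tested), the smallest adjusted p was 0.360. DESeq2 called Olig1, Sox10, Enpp6 and Myrf in the same comparison, and 0.263% of all genes tested as lower. Without the 3 libraries that nearly lacked choroid plexus genes, mutant male 1 was the only mutant male. The values relative to Pdgfra then ran from -0.36 for Nkx2-2 and Myrf to -0.22 for Olig1 and Olig2.

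The same comparison can be read from the ratio to Pdgfra within each library. The ratio of Enpp6 to Pdgfra was 0.342, 0.325 and 0.359 in wild-type males against 0.281, 0.235 and 0.315 in mutant males, and 0.330, 0.367 and 0.352 in wild-type females against 0.249, 0.323 and 0.254 in mutant females. That of Myrf to Pdgfra was 1.32, 1.35 and 1.43 in wild-type males against 1.06, 1.21 and 1.32 in mutant males, and 1.38, 1.55 and 1.43 in wild-type females against 1.09, 1.26 and 1.16 in mutant females. For both of these genes all 6 mutant ratios lay below all 6 wild-type ratios, a pattern held by 0.24% of all genes tested when set against Pdgfra. Both gaps were small: for Enpp6 mutant female 2 had 0.323 and wild-type male 2 had 0.325, and for Myrf mutant male 3 and wild-type male 1 both round to 1.32. For Gpr17, the gene of the step between, the ratio was 1.55 to 1.88 in wild-type males against 1.42 to 1.80 in mutant males, and 1.70 to 1.83 in wild-type females against 1.39 to 1.47 in mutant females, and the males overlapped.

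**Figure D3:**
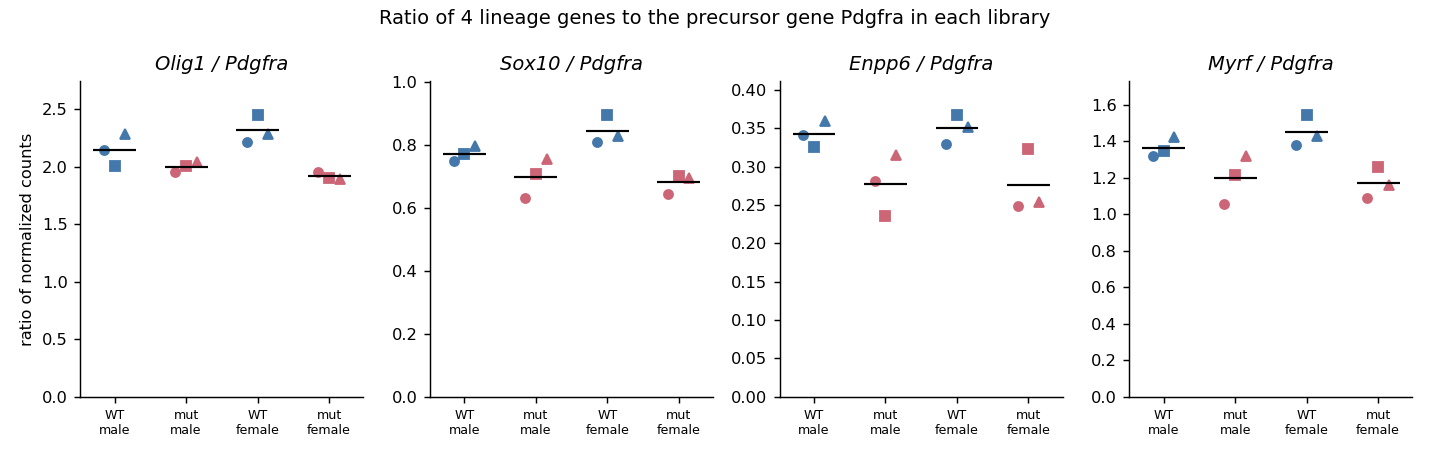
Normalized counts of Olig1, Sox10, Enpp6 and Myrf divided by those of Pdgfra in the same library (vertical axes from 0), with a bar at each group mean. For Enpp6 and Myrf all mutant points lie below all wild-type points, while for Olig1 and Sox10 the males overlap.

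Pdgfra is also made by fibroblasts of the meninges and vessels, and fibroblast markers were higher in mutant than in wild-type females. Of the 11 fibroblast markers, 10 were tested, and their summed level was 5468 to 11157 normalized counts in wild-type females and 11919 to 23981 in mutant females. In males it was 10529.7 to 16438 for wild type and 9012 to 11682 for mutants. The median log2 difference over the tested markers was 1.31 in females and 0.03 in males, with 0 of 10 past an adjusted p of 0.05 and no marker at 0. In females 9 of the 10 were higher at an unadjusted p under 0.05 in limma, as were 669 of the 17496 genes tested. In males 0 of the 10 passed that threshold. With the fibroblast level as a covariate, Pdgfra stood at -0.0019, Gpr17 at -0.18 and Enpp6 at -0.37. Sox10 is also made by Schwann cells. Of 5 Schwann cell markers 3 were tested, with averaged log2 differences of -0.19 for Cdh19, 0.05 for Scn7a and 0.11 for Prx, and Pmp2 was at 0 in every library. Their summed level was 597 to 632 normalized counts in wild-type males against 577 to 629.7 in mutant males, and 550.2 to 807 in wild-type females against 605 to 742 in mutant females. Their part in the result was not tested. The summed choroid plexus markers of wild-type and mutant males were 143655 to 174017 and 1004 to 159176, and those of wild-type and mutant females 842 to 159851 and 51874 to 126960. With the choroid plexus level as a covariate, Olig1 stood at -0.19, Sox10 at -0.25, Gpr17 at -0.23, Enpp6 at -0.33 and Myrf at -0.28. The smallest limma adjusted p of these was 0.163.

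Markers of other cells also differed in sign with genotype, with 0 past an adjusted p of 0.05. Ependymal markers, of the cells that line the ventricle, were lower in mutants for 7 of 7 averaged over both sexes. Of all genes tested, 50.1% were lower. The median log2 difference of these markers was -0.33 averaged over both sexes, -0.73 in males and 0.03 in females, where 5 of the 7 were higher. Mutant males 2 and 3, which nearly lacked choroid plexus genes, had mean log2 levels of 6.72 and 7.44 over these markers. Mutant male 1 had 7.66, and wild-type males had 7.87 to 8.01. In males 5 of the 7 were lower at an unadjusted p under 0.05 in limma, as were 6.23% of all genes tested. Pyramidal neuron markers were higher for 7 of 7, with a median of 0.07 averaged over both sexes, 0.15 in males and 0.01 in females. Averaged over both sexes, 3 of the 7 had an unadjusted p under 0.05 in limma, where 4.4% of all genes tested were higher. Most markers of astrocytes (7 of 8), inhibitory neurons (6 of 7) and microglia (6 of 7) were also higher. So were those of endothelium (6 of 7) and pericytes (5 of 6), while 4 of 7 thalamus and habenula markers were lower. Their part in the values of the 10 genes was not tested.

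Other genes of each stage, from lists chosen by textbook role with earlier results of these data known, were then set beside the 10. All 16 further precursor genes were tested. Of these, 11 were lower and 5 higher, with a median log2 difference of -0.03, and 0 passed an adjusted p of 0.05 in limma. The 4 with the smallest p were Hes5, a target of Notch signalling that astrocytes also make, at 0.37 ± 0.15, the adhesion gene Pcdh15 at -0.14 ± 0.08, the factor Sox8 at -0.07 ± 0.05 and the inhibitor of differentiation Id4 at -0.05 ± 0.04. Cspg4 and Vcan, proteoglycans of precursors, were chosen for mention after their values were seen and stood at 0.08 and -0.0021. Summed precursor genes had 27258 to 29176 normalized counts in wild-type males and 26562 to 30632 in mutant males. In females the sums were 28318 to 30150 and 28032 to 28407.

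Of 17 tested genes of committed and newly formed oligodendrocytes, 16 were lower, with a median of -0.14, and 7 were lower at an unadjusted p under 0.05. Over all genes tested 50.1% were lower, and 4.47% at that threshold. Tns3, an adhesion-linked protein of newly formed cells, stood at -0.18 ± 0.04. Ugt8a, which makes the myelin lipid galactosylceramide, stood at -0.28 ± 0.08, Cemip2, a hyaluronidase, at -0.15 ± 0.05 and Chn2 at -0.16 ± 0.05. Tcf7l2, a Wnt pathway factor of this stage that neurons of the thalamus also make, and Fyn, a kinase, were chosen after their values were seen and stood at -0.01 and -0.02. Within this list 0 passed an adjusted p of 0.05 in limma.

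Of 19 tested genes of mature oligodendrocytes, 18 were lower, with a median of -0.23 and 14 at an unadjusted p under 0.05 (4.47% of all genes tested). Mobp, which helps to compact the myelin sheath, was at -0.31 ± 0.06, Anln, a septin-binding protein, at -0.31 ± 0.06 and the tetraspanin Tspan2 at -0.23 ± 0.06. With 0 past the adjusted threshold in limma, the medians of the 3 lists were -0.03, -0.14 and -0.23 from precursor to mature, beside -0.19 for the 10 genes. The differences between these medians were not tested. How much of each list's RNA came from other cells of the tissue was not tested either, so the medians do not compare stages alone.

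Genes of signalling to precursors, and regulators of chromatin in the lineage, had values on both sides of 0. Of 21 tested signalling genes, which include ligands, receptors, nuclear receptors and the factor Gli1, 10 were lower and 11 higher. Their median log2 difference was 0.04. Notch1, a receptor that holds precursors back, stood at 0.13 ± 0.05, Lingo1, an inhibitor of their differentiation that neurons make, at 0.10 ± 0.04, the growth factor Igf1 at 0.43 ± 0.16 and the thyroid hormone receptor Thra at 0.06 ± 0.03. These 4 had an unadjusted p under 0.05, higher in mutants, where 4.4% of all genes tested were higher. Of 9 chromatin regulators of the lineage, 3 were lower and 6 higher, with a median of 0.03. Chd7, the close relative of Chd8 in this lineage, stood at -0.11 ± 0.05, Yy1 at 0.10 ± 0.04, the deacetylase Hdac2 at 0.05 ± 0.03 and the remodelling enzyme Smarca4 at 0.04 ± 0.03. In both lists 0 passed an adjusted p of 0.05 in limma.

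**Figure D4:**
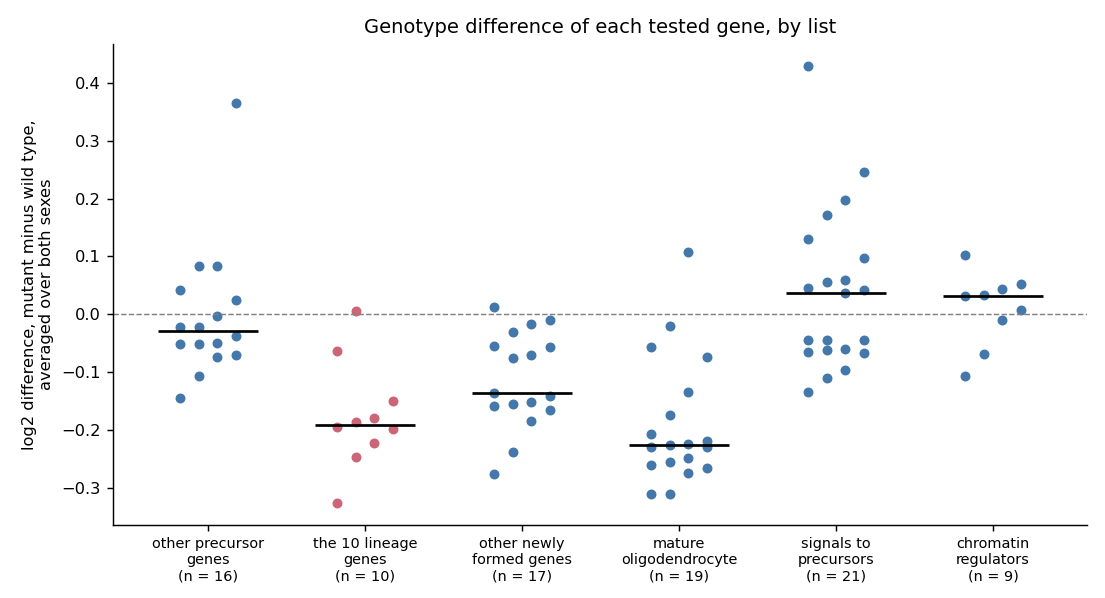
Log2 difference between mutant and wild-type libraries, averaged over both sexes, for each tested gene of the lists, with a bar at each list's median. The medians lie at -0.03 for other precursor genes, -0.14 for newly formed and -0.23 for mature oligodendrocyte genes, and at 0.04 and 0.03 for signals and chromatin regulators.

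The 10 genes also differed between the sexes in one direction. Averaged over both genotypes, all 10 were lower in males, as were 52.3% of all genes tested, with a median log2 difference of -0.12 (males minus females). At an unadjusted p under 0.05, 5 were lower, against 3.54% of all genes tested, and 0 passed an adjusted p of 0.05, which 0.0686% of all genes tested did. Without the 3 libraries low in choroid plexus genes, and with mutant male 1 as the only mutant male, Sox10 passed, as did 0.148% of all genes tested in that direction. 

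The kit does not keep strand, so reads of a gene and of one that overlaps it cannot be told apart where exons overlap. Gpr17 lies within Lims2, a gene of cell adhesions on the opposite strand that had a mean of 439.5 normalized counts and an averaged log2 difference of -0.03. Nkx6-2 overlaps Inpp5a (mean 799, log2 0.04). Bcas1 overlaps Bcas1os2 (mean 59.2, log2 -0.34) and Bcas1os1 (mean 9.75). Nkx2-2, with its low counts, overlaps Nkx2-2os (mean 40.5, log2 -0.10) and 6430503K07Rik (mean 11.1, log2 0.40). The overlapping features of Pdgfra, Olig1 and Enpp6 that were matched to the table had means under 1.

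Over the 12 libraries, the 10 genes varied together to different degrees. These correlations describe log2 values that share libraries, groups and depth, and carry no test. Pearson r ran from 0.06 with Bcas1 to 0.58 with Olig2 for Pdgfra, and from 0.39 (Nkx2-2 with Enpp6) to 0.98 (Sox10 with Myrf) among the 9 others. Within groups, the r of Pdgfra was 0.62 with Gpr17, 0.65 with Sox10 and 0.55 with Olig1, where it was 0.26, 0.44 and 0.39 over all libraries, and ran down to -0.08 with Nkx6-2. Olig1 and Olig2, the neighbours on chromosome 16, had an r of 0.92. The 10 genes themselves were left out of the rankings that follow. Among all other tested genes, those most like Pdgfra were Mtmr11 (r = 0.91), Slc24a4 (0.88), Gm15772 (0.87) and Zfp575 (0.86). Those most like Olig1 were Evi2a and S100a16 (0.92 each), Trp53inp2 (0.91) and Mog (0.90), the last a protein of the outer myelin surface. The genes most like Enpp6 were March8 and Gatm (0.94 each), Sox2ot and Parvb (0.93 each). Nkx6-2 was matched most closely by Pllp, a myelin membrane protein, and Pstpip2 (0.93 each), then by Nudt4 (0.92) and Gpr37 (0.91).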

How the data were processed

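The 10 genes and all lists were chosen with earlier results of these data known. Per the submitters' processing notes, Trimmomatic 0.35, TopHat2 2.1.0, HTSeq and DESeq2 and the build GRCm38 were used; no source used here gives the counting mode. The authors deposited 1 table of counts divided by a size factor (normalized counts, a signal and not raw counts) for 46078 gene identifiers. Each library's values were whole multiples of what 1 read is worth, for 100% of values within 1e-06 reads, which gave recovered reads of 23721482 to 33327314 per library.

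Values were tested as log2(value + 1) with limma 3.58.1 (R 4.3.3), 1 model over the 4 groups, for the 17496 genes with a mean of at least 10. Adjusted p-values are Benjamini-Hochberg over all genes tested. Log2 differences are mutant minus wild type ± standard error on that scale, which understates low genes. Count tests on recovered reads called 1 gene over both sexes with edgeR 4.0.16 and 75 with DESeq2 1.42.0. Other alternatives changed factors, filter, pseudocount, depth, covariates, a replicate block and single libraries. The text names all 10 genes, Chd8, overlapping features and the 4 genes of each list with the smallest p. It also names the 4 genes outside the 10 that were most like Pdgfra, Olig1, Enpp6 and Nkx6-2. Of the lists, 9630013A20Rik was not matched, and Dpt had a mean under 10. Some genes that this rule names are not reported here. Libraries of a group differed from each other beyond sampling noise. Gene positions are Ensembl's and promoters RefSeq's (GRCm38.p6). The limma test of the averaged genotype difference was checked on simulated data, and the other tests were not checked in this way.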

Additional observations from a re-analysis of the deposited data

How the results depend on the processing

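Over 24 alternatives, 1506 of 1557 values of single genes kept their direction and side of the threshold, 23 passed it newly, 13 (all of Chd8) no longer passed and 15 changed sign. Among these genes only Chd8 passed in the main test, so no other gene could lose the threshold. A missing adjusted p was counted as kept. The number of the 10 genes past an adjusted p of 0.05, averaged over both sexes, was 0 and became 4 with DESeq2 and 4 without the 3 libraries low in choroid plexus genes. Without those libraries, which leaves mutant male 1 as the only mutant male with a spread taken from the other groups, it also became 1 in males (Myrf) and 1 between the sexes (Sox10), from 0, and the median over the 10 genes was -0.31, where it was -0.19 with all libraries and -0.21 to -0.15 when single libraries were left out. Relative to Pdgfra, DESeq2 gave 4 in place of 0. The cause was not tested.

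The averaged value of Pdgfra was -0.0067 with a choroid plexus covariate, -0.0019 with a fibroblast covariate, -0.019 without the 3 libraries and -0.013 to 0.024 when single libraries were left out. Nkx2-2 ranged from -0.15 to 0.060 when single libraries were left out, from -0.14 to 0.036 relative to Pdgfra, from -0.23 to 0.19 in males and from -0.20 to 0.084 in females, where it was 0.0080 with the choroid plexus covariate. Lims2 ranged from -0.080 to 0.047 when single libraries were left out. Inpp5a was -0.041 without the 3 libraries. For these genes the cause was not tested.

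Over all genes tested, libraries with the same replicate number did not deviate together (18 pairs, r from -0.58 to 0.29, median 0.0012). For 36 pairs with different numbers r ran from -0.39 to 0.59, with a median of -0.027. The labels do not say whether a number is shared between groups, and a pairing that moves few genes would not show in this check. With the replicate block, 0 of the 10 genes passed in any comparison and the median was -0.19; Chd8 had an adjusted p of 0.131. Nkx2-2 had 68.5 to 146 normalized counts, and with thinned reads its averaged value was -0.15 and that relative to Pdgfra -0.16, from -0.06 and -0.07.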
